A study of Mus musculus with 8 samples.

Results

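The insulin receptor to FoxO signalling genes comprised *Insr*, *Igf1r*, *Irs1*, *Irs2*, *Pik3r1*, *Akt1*, *Akt2*, *Foxo1*, *Foxo3* and *Slc2a4*. They were chosen by name as the core of insulin and IGF1 signalling, and all 10 of them were found among the 56691 genes of the count table. All 10 also passed the filter on low counts that left 22423 genes for the test. The study asked how the loss of ATM, the kinase mutated in ataxia-telangiectasia, alters insulin action, and treated the cerebellum as an insulin-sensitive tissue. Bulk RNA was sequenced from the cerebellum of 8 mice aged 6 months, for which no treatment was stated. The *Atm*-WT group (ATM +/+) held the males 2M, 7M, 13M and 32M, and the *Atm*-KO group (ATM -/-) held the males 1M, 11M and 12M and the female 7F. Both groups came from crosses of heterozygous carriers of the B6;129S4-Atmtm1Bal/J line, and the knockout was constitutive, not confined to the cerebellum. Wild-type littermates served as controls in the study, but the labels do not say which mice shared a litter. The methods of the study state that its mice were selected by genotype, age and HOMA-IR, an index of insulin resistance from blood.

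Insulin and IGF1 bind the receptor tyrosine kinases encoded by *Insr* and *Igf1r*, which phosphorylate the adaptors IRS1 and IRS2. The adaptors recruit PI3-kinase, whose regulatory subunit is encoded by *Pik3r1*, and the lipid product of this enzyme activates the AKT kinases. AKT phosphorylates the transcription factors FOXO1 and FOXO3 and so keeps them out of the nucleus, and in fat and muscle it drives the glucose transporter GLUT4, encoded by *Slc2a4*, to the cell surface. Most of this pathway is controlled by phosphorylation, which RNA counts do not measure.

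The libraries held 65967130 to 88030300 counts each. Levels are given as CPM, that is counts per 1e6 counts of a library after TMM scaling, which corrects for composition. *Atm* itself (chromosome 9, bases 53348097 to 53448236 of GRCm39) stood at 67.6, 80.0, 79.4 and 59.0 CPM in *Atm*-WT mice 2M, 7M, 13M and 32M and at 51.1, 44.3, 41.1 and 44.9 CPM in *Atm*-KO mice 1M, 7F, 11M and 12M. The genotypes did not overlap, and the log2 fold change of *Atm*-KO against *Atm*-WT was −0.66 ± 0.10 (SE, n = 4 per genotype, adjusted p = 0.0775 by edgeR's quasi-likelihood test and 2.0e-05 by DESeq2's Wald test, both with Benjamini-Hochberg adjustment). Transcripts counted on *Atm* were thus lower, not absent, in the *Atm*-KO cerebella. Markers of Purkinje and granule cells summed to at least 4474 CPM per list in every library. Markers of the forebrain summed to at most 7.32 CPM and those of adipocytes and skeletal muscle to at most 2.99 CPM. *Xist*, which marks female cells, read 910 CPM in 7F and at most 0.163 CPM in the other libraries.

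Among the 10 genes, the lowest values of *Atm*-KO relative to *Atm*-WT belonged to *Foxo1* and *Irs2*, and for both genes every *Atm*-KO mouse lay under every *Atm*-WT mouse. By edgeR's quasi-likelihood test none of the 10 genes reached an adjusted p under 0.05, a level met by 4 of the 22423 genes (0.0178%, 2 higher and 2 lower). At an unadjusted p under 0.05 this test held 3 of the 10, *Irs2*, *Foxo1* and *Akt1*, all lower in *Atm*-KO, where 8.48% of all genes tested were lower and 11.7% higher at that level. At an adjusted p under 0.1 it held *Irs2* alone, with 1.9% of all genes. DESeq2, the tool named in the methods of the study, called *Irs2* and *Foxo1* lower at an adjusted p under 0.05, where it called 2.44% of 20724 genes lower and 5.05% higher. By limma voom, a caption of the study having named limma, none of the 10 genes was called (adjusted p = 0.103 for *Irs2* and 0.124 for *Foxo1*). No overlap between genotypes was seen for these 2 genes, both lower, against 5.12% of all genes that were lower and 6.47% that were higher without overlap.

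The mean level of all 10 genes was lower in *Atm*-KO, although the sign of *Insr*, *Akt2* and *Slc2a4*, each within 0.04 of 0 on the log2 scale, turned when libraries were scaled by their totals alone or among protein-coding genes alone. The median log2 fold change of the 10 genes was −0.11, beside −0.018 over all genes tested. It was −0.058 without *Atm*-WT mouse 13M, −0.064 with library size alone, where the median of all genes was 0.031, and −0.072 among protein-coding genes alone. Lower values were common among genes of this kind, since 66.9% of 9737 protein-coding genes with a mean of at least 10 CPM were lower in *Atm*-KO, with a median of −0.059.

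**Figure D1:**
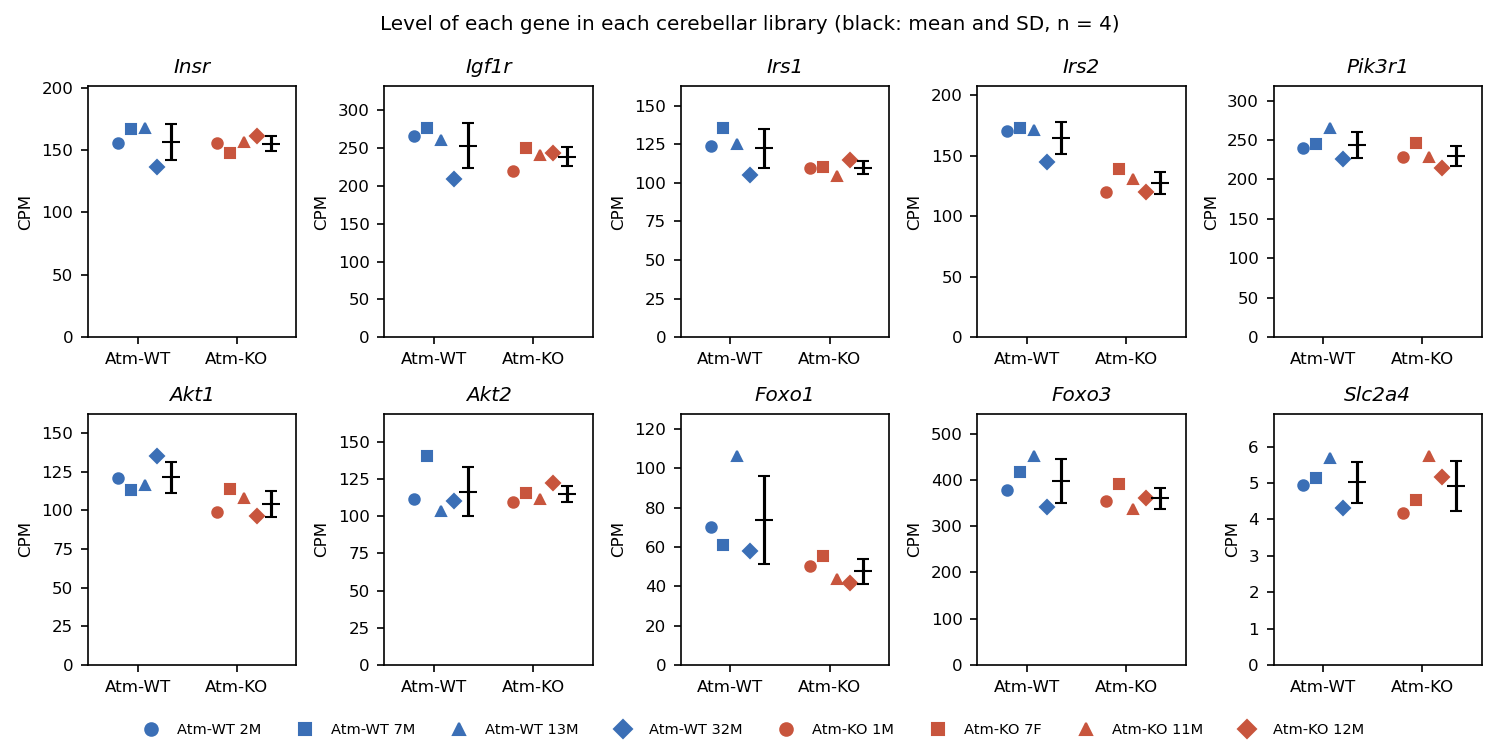
Level of each of the 10 genes in CPM (vertical axes, from 0) in each library, with *Atm*-WT in blue, *Atm*-KO in red, a symbol per mouse, and the mean ± SD of each genotype in black (n = 4). *Irs2* and *Foxo1* are the genes whose *Atm*-KO points (120 to 139 CPM and 41.5 to 55.4 CPM) all lie under their *Atm*-WT points (145 to 173 CPM and 57.8 to 107 CPM), and the other 8 genes overlap.

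*Irs2* (chromosome 8, bases 11034681 to 11059499) encodes the adaptor through which the insulin and IGF1 receptors reach PI3-kinase beside IRS1. Its levels were 170, 173, 171 and 145 CPM in *Atm*-WT mice 2M, 7M, 13M and 32M and 120, 139, 131 and 120 CPM in *Atm*-KO mice 1M, 7F, 11M and 12M. The *Atm*-WT mice 2M, 7M and 13M lay close together, 32M was the lowest of its group, and it was still above the highest *Atm*-KO mouse. The means were 165 ± 13.2 and 127 ± 9.35 CPM (SD, n = 4 each), a log2 fold change of −0.37 with a 95% interval of −0.54 to −0.20, which is a level lower by 22.6%. The adjusted p was 0.0931 by edgeR and 0.00322 by DESeq2, and the exact permutation p was 0.0286, the smallest that 4 against 4 mice can give. *Irs2* stood at rank 88 of the 22423 genes by edgeR's p. With each mouse left out in turn its log2 fold change stayed between −0.43 and −0.33, and DESeq2 gave an adjusted p of at most 0.0409 in each of these fits. In edgeR the adjusted p of the fits with a mouse left out ran from 0.0593 (without *Atm*-KO mouse 7F) to 0.293 (without *Atm*-KO mouse 1M). With 1 surrogate variable in edgeR the log2 fold change was −0.36 (adjusted p = 0.272).

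*Irs1* (chromosome 1, bases 82210822 to 82269338), the sister adaptor, read 124, 136, 125 and 105 CPM in *Atm*-WT against 109, 110, 105 and 115 CPM in *Atm*-KO mice, in the order used above. The genotypes overlapped through *Atm*-WT mouse 32M, which was as low as the lowest *Atm*-KO mouse to the nearest CPM. The log2 fold change was −0.16 with an interval of −0.33 to 0.013 (adjusted p = 0.282 by edgeR). *Irs2* was counted more often than *Irs1* in all 8 libraries. The log2 ratio of *Irs2* to *Irs1* counts within a library, which does not depend on scaling between libraries, was 0.46, 0.35, 0.45 and 0.47 in *Atm*-WT against 0.14, 0.34, 0.32 and 0.063 in *Atm*-KO mice. These values did not overlap, although *Atm*-WT mouse 7M and *Atm*-KO mouse 7F lay close together. The mean difference was −0.22 (exact two-sided permutation p = 0.0286, and 0.0571 after Benjamini-Hochberg adjustment over the 4 ratios tested). Without any single *Atm*-WT mouse the exact p rose to between 0.0857 and 0.114, and without *Atm*-KO mouse 12M it was 0.0571.

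The sequences before the transcription starts of *Irs2* and *Irs1* are shown because *Irs2* is a known target of FOXO factors in liver and *Irs1* is its nearest relative. FOXO factors bind the insulin response motif CAAAACA, which reads TGTTTTG on the other strand. Promoters were available for 8 of the 10 genes from RefSeq on GRCm38.p6, *Insr* and *Slc2a4* being the others, and each run gives the 250 bases before the start, 5′ to 3′ on the strand of the gene, with motif matches in capitals. The *Irs2* window is chr8:11008930-11009179 (minus strand), the *Irs1* window chr1:82291440-82291689 (minus strand) and the *Foxo1* window, shown for comparison, chr3:52268087-52268336 (plus strand).
Irs2: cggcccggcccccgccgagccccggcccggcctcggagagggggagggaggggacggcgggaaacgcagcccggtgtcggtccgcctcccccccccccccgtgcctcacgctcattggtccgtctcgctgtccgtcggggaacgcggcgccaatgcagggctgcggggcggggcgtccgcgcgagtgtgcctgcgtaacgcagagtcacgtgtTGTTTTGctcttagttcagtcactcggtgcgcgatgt
Irs1: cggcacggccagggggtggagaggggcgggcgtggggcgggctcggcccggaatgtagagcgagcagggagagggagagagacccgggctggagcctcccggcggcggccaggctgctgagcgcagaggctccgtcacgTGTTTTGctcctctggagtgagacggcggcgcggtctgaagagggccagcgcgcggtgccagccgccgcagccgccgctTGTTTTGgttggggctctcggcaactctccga
Foxo1: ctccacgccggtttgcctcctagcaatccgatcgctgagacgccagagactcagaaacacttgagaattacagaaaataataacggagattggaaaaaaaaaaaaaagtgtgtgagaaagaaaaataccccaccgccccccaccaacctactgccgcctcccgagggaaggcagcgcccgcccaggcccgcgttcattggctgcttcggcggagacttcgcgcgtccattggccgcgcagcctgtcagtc
The motif began at −37 in *Irs2* and at −111 and −32 in *Irs1*, counted from the transcription start. It was absent from the windows of the other 6 genes matched, *Foxo1* among them. On either strand it occurred in 5.561% of 32851 promoters of this length, and in a promoter of 6.379% of 27025 genes. The core motif of FOXO binding is GTAAACA, which reads TGTTTAC on the other strand and shares no match with the first motif. It occurred in 3.166% of promoters (3.537% of genes) and, among the 8 genes, in an *Akt1* promoter at −161. These matches describe the letters of the windows, and no binding was measured in these libraries.

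*Foxo1* (chromosome 3, bases 52175757 to 52260642) encodes the FOXO factor best known for driving gluconeogenic genes in liver when insulin is low. Its levels were 70.1, 61.0, 107 and 57.8 CPM in *Atm*-WT mice 2M, 7M, 13M and 32M and 50.3, 55.4, 43.5 and 41.5 CPM in *Atm*-KO mice 1M, 7F, 11M and 12M. The genotypes did not overlap, but the highest *Atm*-KO mouse and the lowest *Atm*-WT mouse lay close together, and *Atm*-WT mouse 13M stood far above the rest. The means were 73.9 ± 22.4 and 47.7 ± 6.35 CPM, with a log2 fold change of −0.63 and a 95% interval of −1.01 to −0.25, a level lower by 35.5%. The adjusted p was 0.111 by edgeR and 0.00857 by DESeq2, and the exact permutation p was 0.0286. Leaving out *Atm*-WT mouse 13M shrank the log2 fold change to −0.39 (adjusted p = 0.126 by edgeR and 0.0240 by DESeq2). Without *Atm*-KO mouse 12M it was −0.57 and DESeq2 no longer called it (adjusted p = 0.253).

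*Foxo3* (chromosome 10, bases 42057837 to 42154007), the FOXO factor tied to stress resistance and autophagy, read 378, 418, 453 and 342 CPM in *Atm*-WT against 354, 391, 336 and 362 CPM in *Atm*-KO mice. The genotypes overlapped broadly, and the log2 fold change was −0.14 with an interval of −0.34 to 0.054 (adjusted p = 0.393 by edgeR). It was −0.057 without *Atm*-WT mouse 13M. The log2 ratio of *Foxo3* to *Foxo1* counts was 2.43, 2.78, 2.09 and 2.56 in *Atm*-WT against 2.81, 2.82, 2.95 and 3.12 in *Atm*-KO mice. *Atm*-WT mouse 13M had the lowest ratio and 7M came nearest to the *Atm*-KO mice without reaching them. The ratio was higher by 0.46 in *Atm*-KO (exact permutation p = 0.0286, adjusted over the 4 ratios 0.0571), and without any single *Atm*-KO mouse its exact p was 0.0571.

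**Figure D2:**
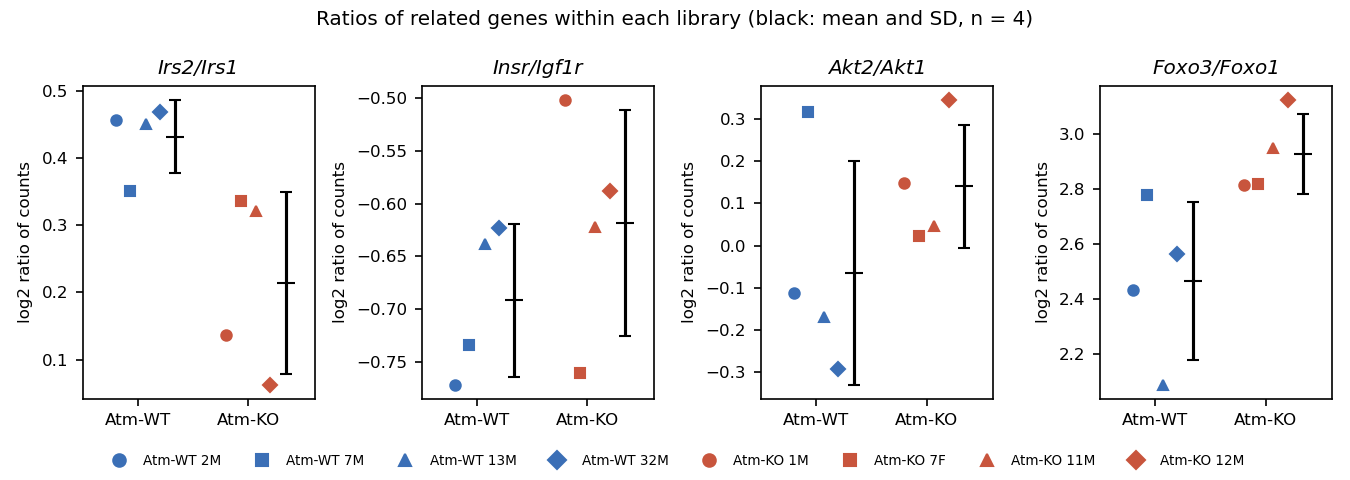
Log2 ratio of counts of related genes within each library (vertical axes, not starting at 0), with *Atm*-WT in blue, *Atm*-KO in red and the mean ± SD in black (n = 4). *Irs2/Irs1* is lower in *Atm*-KO and *Foxo3/Foxo1* higher, both without overlap, whereas *Insr/Igf1r* and *Akt2/Akt1* overlap.

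*Atm*-WT mouse 13M was also the highest library for 13 of 15 listed genes known to respond to glucocorticoid hormones, a group in which *Foxo1* has been placed as well, beside 10.5% of all genes tested. The 15 genes were chosen after the values had been seen, so their counts are a description. All 15 were lower in *Atm*-KO, with a median log2 fold change of −0.75 (−0.53 without 13M), none passed an adjusted p under 0.05 in edgeR (13 had an unadjusted p under 0.05, and 11 without 13M), and DESeq2 called 7 lower. Their summed level was 1130, 1058, 1548 and 980 CPM in *Atm*-WT against 828, 905, 686 and 690 CPM in *Atm*-KO mice. *Fkbp5*, a chaperone that restrains the glucocorticoid receptor, read 30.9, 14.8, 58.4 and 16.1 CPM against 12.7, 16.5, 11.5 and 7.55 CPM. *Zbtb16*, a hormone-induced zinc finger factor, read 92.3, 18.0, 125 and 31.5 CPM against 34.2, 47.9, 20.5 and 8.14 CPM. Both genes overlapped between genotypes. Among *Atm*-WT mice both were highest in 13M and next in 2M, as *Foxo1* was, a pattern seen in 7 of the 15 genes and not in the other 8, *Sgk1* and *Klf9* among them, which were lowest of the *Atm*-WT mice in 2M. The part of these genes' regulators in the level of *Foxo1* was not tested.

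**Figure D3:**
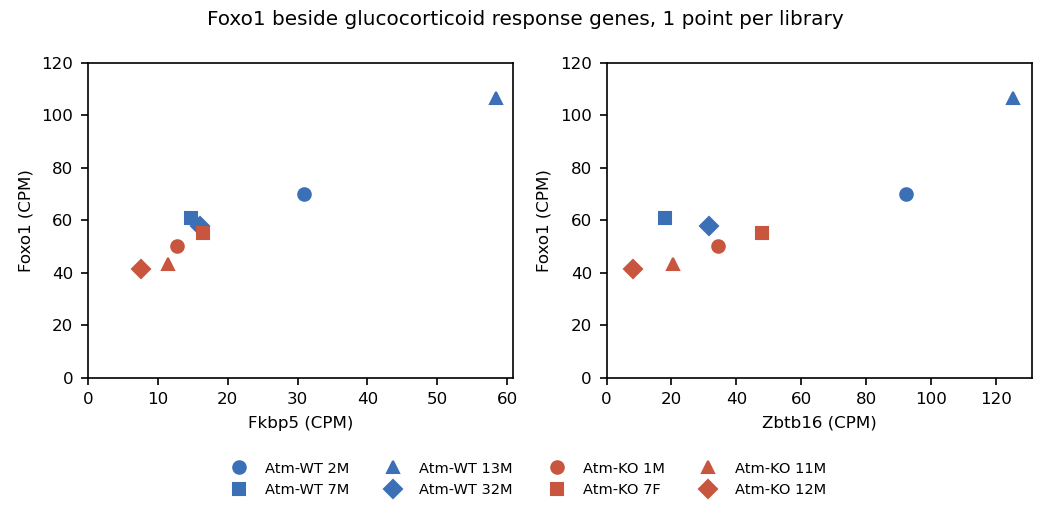
*Foxo1* level (vertical axis, CPM) against the level of *Fkbp5* (left) and *Zbtb16* (right) in CPM, a point per library, *Atm*-WT in blue and *Atm*-KO in red. *Atm*-WT mouse 13M is highest on every axis (107 CPM of *Foxo1*) and *Atm*-WT mouse 2M is next.

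*Insr* (chromosome 8, bases 3172061 to 3329647), the insulin receptor, read 156, 167, 168 and 136 CPM in *Atm*-WT against 156, 147, 157 and 162 CPM in *Atm*-KO mice. All *Atm*-KO values lay within the range of the *Atm*-WT mice. The log2 fold change was −0.011 with a 95% interval of −0.17 to 0.15 (adjusted p = 0.950 by edgeR). *Igf1r* (chromosome 7, bases 67601518 to 67883416), the IGF1 receptor, read 266, 277, 261 and 210 CPM against 220, 250, 241 and 243 CPM. *Atm*-WT mouse 32M was its lowest library and the other *Atm*-WT mice its highest, with a log2 fold change of −0.087 (interval −0.28 to 0.10, adjusted p = 0.605 by edgeR). Without 32M it was −0.17 (adjusted p = 0.255 by edgeR) and without 7M −0.045. The log2 ratio of *Insr* to *Igf1r* was −0.69 ± 0.072 in *Atm*-WT against −0.62 ± 0.11 in *Atm*-KO (exact permutation p = 0.257).

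*Pik3r1* (chromosome 13, bases 101817071 to 101904725), which encodes the p85α, p55α and p50α subunits that hold PI3-kinase at phosphorylated adaptors, read 240, 245, 265 and 226 CPM in *Atm*-WT against 229, 246, 229 and 215 CPM in *Atm*-KO mice. The genotypes overlapped (log2 fold change −0.087, interval −0.24 to 0.063, adjusted p = 0.501 by edgeR), and without *Atm*-WT mouse 13M the value was −0.028.

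*Akt1* (chromosome 12, bases 112620248 to 112645654), the AKT kinase most tied to growth and survival, read 121, 113, 116 and 135 CPM in *Atm*-WT against 99.0, 114, 108 and 96.1 CPM in *Atm*-KO mice. The overlap came from *Atm*-KO mouse 7F, just above *Atm*-WT mouse 7M. Its log2 fold change was −0.22 with an interval of −0.39 to −0.051 (unadjusted p = 0.0151 and adjusted p = 0.157 by edgeR, adjusted p = 0.114 by DESeq2, exact permutation p = 0.0571). With 1 surrogate variable it was −0.097, and with each mouse left out in turn it lay between −0.26 and −0.16. Exons of *Akt1* share 3340 bases with *Siva1* on the opposite strand, where reads of the pair cannot be told apart unless strand was used in counting, which was not stated. Shorter overlaps of this kind exist for the other genes except *Pik3r1* and *Akt2*. Among them are 1247 bases of *Igf1r* with *Pgpep1l*, 674 of *Foxo1* with *Gm20402* and 366 of *Irs2* with *9530052E02Rik*.

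*Akt2* (chromosome 7, bases 27284378 to 27340262), the AKT kinase that carries most of insulin's effect on glucose uptake, read 112, 141, 104 and 111 CPM against 110, 116, 112 and 122 CPM. *Atm*-WT mouse 7M was the highest library and the other 7 lay between 104 and 122 CPM. The log2 fold change was −0.023 (interval −0.22 to 0.17, adjusted p = 0.912 by edgeR). The log2 ratio of *Akt2* to *Akt1* averaged −0.065 ± 0.27 in *Atm*-WT against 0.14 ± 0.15 in *Atm*-KO (exact permutation p = 0.229). Leaving out *Atm*-WT mouse 7M made the difference of this ratio 0.33 in place of 0.21, with an exact p of 0.0286, the smallest that 3 against 4 mice can give.

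*Slc2a4* (chromosome 11, bases 69831006 to 69839070), the insulin-regulated glucose transporter of fat and muscle, was the scarcest of the genes, with 342 to 487 counts per library. It read 4.94, 5.14, 5.68 and 4.32 CPM in *Atm*-WT against 4.19, 4.53, 5.75 and 5.17 CPM in *Atm*-KO mice, and *Atm*-KO mice held both the lowest and the highest value. The log2 fold change was −0.032 with an interval of −0.36 to 0.30, the widest among the genes whose genotypes overlapped (adjusted p = 0.928 by edgeR). The markers of fat and muscle summed to 0.242 to 2.99 CPM, with *Lep* at 0 in each library. The highest sum was that of *Atm*-KO mouse 11M, which held 92 counts of *Myh4* and 36 of *Ckm*, muscle genes with at most 6 and 4 counts in the other libraries, and it also had the highest *Slc2a4*. Without this mouse the log2 fold change of *Slc2a4* was −0.10, and the part of muscle RNA in its level was not tested.

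**Figure D4:**
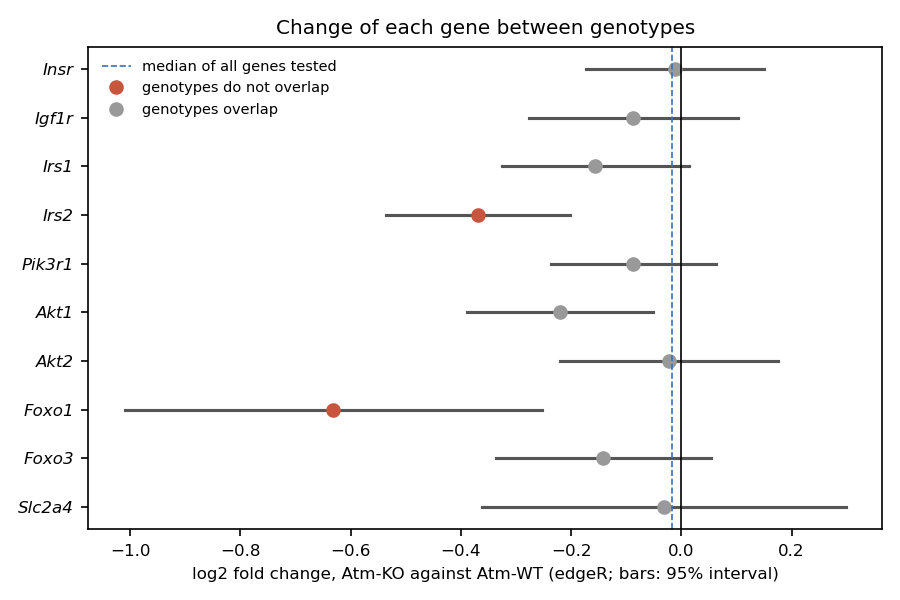
Log2 fold change of *Atm*-KO against *Atm*-WT by edgeR (horizontal axis) for each of the 10 genes, with 95% intervals and n = 4 mice per genotype. Red marks genes without overlap between genotypes, and the dashed line is the median of all genes tested (−0.018). The intervals of *Irs2*, *Akt1* and *Foxo1* lie under 0 and the other 7 include it.

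Compared with each other per kilobase of merged exons in *Atm*-WT mice, *Foxo3* had the highest level (43.1 ± 5.22 CPM per kb), followed by *Pik3r1* (22.7 ± 1.52), *Irs2* (22.4 ± 1.79), *Akt1* (15.5 ± 1.27), *Irs1* (13.1 ± 1.37), *Igf1r* (12.8 ± 1.51), *Insr* (11.4 ± 1.07), *Akt2* (9.01 ± 1.27), *Foxo1* (7.97 ± 2.41) and *Slc2a4* (0.963 ± 0.108). Neighbours in this order had ranges apart from each other only at *Foxo3* and *Pik3r1*, at *Irs2* and *Akt1* and at *Foxo1* and *Slc2a4*. The middle of the order depended on the length used, since with the length of the canonical transcript *Akt1* moved from 4th to 2nd, *Akt2* from 8th to 4th, *Irs2* from 3rd to 5th and *Irs1* from 5th to 8th. *Foxo3* remained the highest and *Slc2a4* the lowest under both lengths. The *Atm*-WT means of *Insr* and *Igf1r* were 16.7 and 20.3 CPM per kb with the canonical length.

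Over the 8 libraries, the genes whose log2 CPM followed *Irs2* most closely among 15738 genes with a mean of at least 1 CPM were *2610021A01Rik*, *Ehd3* and *Acsf2* (Pearson's r = 0.989, 0.981 and 0.975). Those that followed *Insr* were *Ankfy1*, *Rlf* and *D5Ertd579e* (r = 0.974, 0.970 and 0.951). *Net1*, *Efr3b* and *Rhoj* followed *Foxo1* (r = 0.994, 0.980 and 0.980), a gene added to this search after its values were seen. These are the highest of many correlations over libraries that share a genotype and a depth, and they describe the libraries only. Among the 10 genes, after the mean of each genotype was removed, 34 of the 45 pairs had a positive r and the median was 0.38. The range ran from −0.87 for *Insr* and *Akt1* to 0.87 for *Pik3r1* and *Foxo1*.

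The 8 RNAs kept in the nucleus, *Malat1* and *Meg3* among them, summed to 4860 to 9663 CPM in *Atm*-WT and 10204 to 15864 CPM in *Atm*-KO mice, and all 8 were higher, with 1 called by edgeR and 6 by DESeq2. Genes of the annotation class TEC, transcripts still awaiting experimental evidence, took from 0.204% to 0.333% of counts in the *Atm*-WT libraries against 0.354% to 0.529% in the *Atm*-KO libraries, with no overlap. Mitochondrial genes took 0.903% to 1.2% against 0.565% to 0.952%, with overlap through mouse 7F. Markers of glia and vessels were mostly lower in *Atm*-KO, with none called by edgeR. All 7 microglia markers were lower (median log2 fold change −0.40, 4 at an unadjusted p under 0.05 in edgeR and 4 called by DESeq2), and their sum ranged from 83.0 to 117 CPM in *Atm*-WT and from 65.4 to 86.3 CPM in *Atm*-KO mice. All 6 mural cell markers were lower (median −0.38, 3 at an unadjusted p under 0.05 and 2 called by DESeq2), with sums of 124 to 169 and 95.6 to 135 CPM. All 7 markers of astrocytes and Bergmann glia were lower (median −0.19, 4 at an unadjusted p under 0.05 and 2 called by DESeq2), with sums of 2603 to 2825 and 2384 to 2607 CPM. All 7 oligodendrocyte markers were lower (median −0.18, 3 at an unadjusted p under 0.05 and none called by DESeq2), and *Atm*-KO mouse 12M had the lowest sum (1981 CPM against 3144 to 4304 CPM in the other mice). This mouse also held 8 counts of *Sst*, a gene of the interneuron list, against 258 to 667 in the other mice. Its value of the surrogate variable (−0.763) was the most extreme. Of 7 endothelial markers 4 were lower (median −0.21, 3 lower at an unadjusted p under 0.05 and 2 called by DESeq2), with sums of 190 to 227 and 158 to 216 CPM. All 6 choroid plexus markers were lower (median −0.55, 2 at an unadjusted p under 0.05 and none called by DESeq2), with sums of 777 to 1541 and 424 to 1205 CPM. All 6 genes of the interneuron list were lower (median −0.16, 1 at an unadjusted p under 0.05 and 1 called by DESeq2), with sums of 1523 to 1663 and 1327 to 1482 CPM. The gene called was *Pvalb*, and *Gad1* had the highest level. Purkinje cells, which are also GABAergic, express *Gad1*, *Gad2* and *Pvalb* too, so this list does not set interneurons apart from them. Of 6 meningeal fibroblast markers 4 were lower (median −0.21, 1 at an unadjusted p under 0.05 and 1 called by DESeq2), and of 3 markers of oligodendrocyte precursors 2 were lower, with none at that level. All 5 red blood cell genes were higher (median 0.61), with none at an unadjusted p under 0.05. Among these cell type lists the sums overlapped between genotypes except for the interneuron list. Purkinje cell markers had a median of −0.093 and granule cell markers of 0.050, with none called by either tool, and 1 Purkinje and no granule cell marker lay at an unadjusted p under 0.05. The part of these differences in the levels of *Irs2*, *Foxo1* and the other genes was not tested, and in bulk tissue fewer cells of a type and less RNA per cell cannot be told apart.

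Around the 10 genes, 114 other genes of the pathway were read from the same fit, and 108 of them passed the filter. None was called by edgeR at an adjusted p under 0.05. DESeq2 called 2 higher and 11 lower, beside the 5.05% and 2.44% given above for all genes, and edgeR held 4 higher and 28 lower at an unadjusted p under 0.05, beside 11.7% and 8.48% of all genes. Without *Atm*-WT mouse 13M edgeR held 16 lower at that level, and the share over all genes was not computed for that fit. Their median log2 fold change was −0.093, with 30 higher and 78 lower, where 63.8% of the tested protein-coding genes were lower with a median of −0.061. Of the 108 genes 2 higher and 15 lower did not overlap between genotypes, beside 6.47% and 5.12% of all genes.

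**Figure D5:**
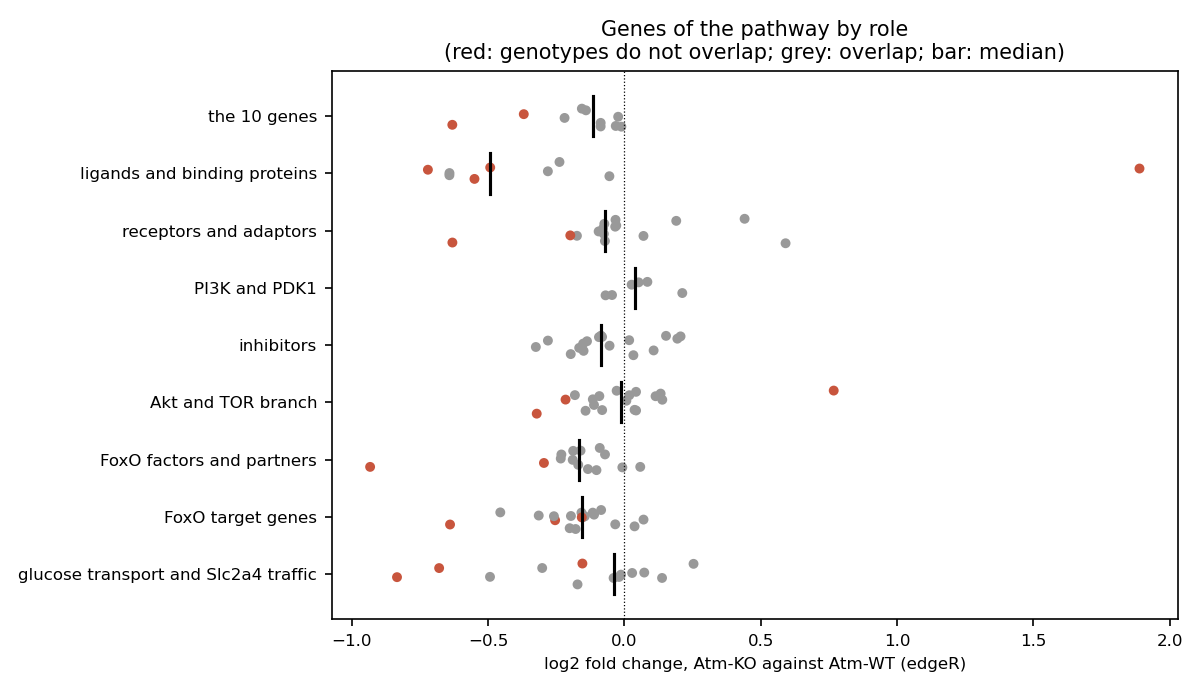
Log2 fold change of *Atm*-KO against *Atm*-WT by edgeR (horizontal axis) for each tested gene of the pathway, in rows by role, with genes without overlap between genotypes in red and the median of each row as a black bar. The row of ligands and binding proteins has its median at −0.49, and the rows of PI3K and of the AKT and TOR branch have theirs at 0.039 and −0.011.

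Upstream of the receptors, the insulin genes were scarce, with no count of *Ins1* in any library and 2 to 20 counts of *Ins2*. *Igf1* stood at 15.6 CPM in *Atm*-WT against 15.0 CPM in *Atm*-KO (log2 fold change −0.055, adjusted p = 0.775 by edgeR). *Igf2*, a growth factor made largely by meninges and choroid plexus in the adult brain, stood at 1.40 against 0.899 CPM with overlapping genotypes (log2 fold change −0.64, adjusted p = 0.260 by edgeR and 0.192 by DESeq2). Of 9 tested ligand and binding protein genes 8 were lower, with a median log2 fold change of −0.49, and DESeq2 called *Igfbp4*, *Igfbp6* and *Igfbp7*, which encode carriers of IGF or IGF-related secreted proteins, as lower. *Igfbp6* read 6.62, 6.72, 6.81 and 6.27 CPM in *Atm*-WT against 3.97, 4.36, 4.77 and 4.94 CPM in *Atm*-KO mice, with no overlap (log2 fold change −0.55, adjusted p = 0.0938 by edgeR and 0.00138 by DESeq2). *Igfbp7* had means of 6.25 ± 0.925 and 3.79 ± 0.736 CPM and *Igfbp4* of 14.5 ± 1.80 and 10.3 ± 1.29 CPM. *Igfals*, which stabilizes IGF complexes in blood, was called higher by DESeq2 (adjusted p = 0.0274) at 0.0893 against 0.331 CPM, too low for the rule by which genes were named and chosen after its values were seen.

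Among 15 other receptors and adaptors 11 were lower and none was called by edgeR or DESeq2, with 3 lower at an unadjusted p under 0.05 in edgeR. The genes without overlap were *Shc1*, an adaptor that leads to the Ras pathway (12.9 ± 0.622 against 11.2 ± 0.410 CPM), and *Sh2b2*, an adaptor of the insulin receptor, whose log2 fold change of −0.63 became −0.21 without *Atm*-WT mouse 13M. The 6 genes of PI3-kinase and PDK1 had a median of 0.039 with 4 higher and 2 lower, and none was called by either tool or had an unadjusted p under 0.05 in edgeR. Of 17 inhibitors, phosphatases and GRB and SOCS proteins among them, 11 were lower and none was called by either tool (1 higher and 1 lower at an unadjusted p under 0.05 in edgeR).

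In the AKT and TOR branch 9 of 18 genes were higher and 9 lower. *Rps6kb2*, a kinase of ribosomal protein S6, read 13.7, 11.8, 12.6 and 9.35 CPM in *Atm*-WT against 22.9, 15.3, 17.3 and 25.2 CPM in *Atm*-KO mice (log2 fold change 0.77, adjusted p = 0.0931 by edgeR and 9.1e-04 by DESeq2). Its exons share 1224 bases with *Ptprcap* on the opposite strand. Its substrate *Rps6* had means of 104 ± 11.3 and 83.0 ± 8.61 CPM (log2 fold change −0.32, adjusted p = 0.0372 by DESeq2), and *Gsk3a*, a kinase that AKT inhibits, 113 ± 5.65 and 97.6 ± 7.09 CPM (adjusted p = 0.0822 by DESeq2). *Mtor*, the kinase of the TOR complexes, stood at 194 and 195 CPM and was called by neither tool.

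Of 14 genes of FOXO factors and their partners 13 were lower, with a median of −0.17. *Sgk1*, an AKT-related kinase that phosphorylates FOXO factors and responds to glucocorticoids, read 97.9, 167, 207 and 115 CPM in *Atm*-WT against 83.8, 97.3, 64.5 and 61.9 CPM in *Atm*-KO mice. *Atm*-WT mouse 2M and *Atm*-KO mouse 7F were almost level, and the genotypes did not overlap (log2 fold change −0.93, adjusted p = 0.0942 by edgeR and 0.0275 by DESeq2, and −0.71 without 13M). *Foxo4*, another widely expressed FOXO gene, had means of 25.0 ± 1.53 and 20.3 ± 1.83 CPM (log2 fold change −0.30, adjusted p = 0.117 by edgeR and 0.0358 by DESeq2).

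Among 18 tested genes known as FOXO targets in other tissues 16 were lower, with a median of −0.16, and DESeq2 called *Pdk4*, *Cat* and *Bcl6* lower. *Pdk4*, which blocks the entry of pyruvate into mitochondrial oxidation, read 12.5, 14.4, 19.6 and 11.6 CPM in *Atm*-WT against 8.56, 11.2, 10.1 and 7.48 CPM in *Atm*-KO mice (log2 fold change −0.64, adjusted p = 0.111 by edgeR and 0.00923 by DESeq2). *Cat*, the peroxide-degrading catalase, had means of 46.1 ± 2.04 and 38.7 ± 2.94 CPM, and *Sesn1*, a stress-induced regulator of TOR, 92.1 ± 7.14 and 82.6 ± 1.94 CPM with an adjusted p of 0.235 by DESeq2. The log2 fold change of *Sesn1* was −0.157, and −0.085 without *Atm*-WT mouse 13M. *Bcl6*, a transcriptional repressor named after its values were seen, overlapped between genotypes (87.6 and 63.9 CPM). The liver gluconeogenesis gene *Pck1* had no count, and *G6pc1* had at most 2 counts in a library.

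Of 13 genes of glucose transport and *Slc2a4* traffic 9 were lower, with a median of −0.040. *Slc2a1*, the glucose transporter of the blood-brain barrier and glia, read 129, 91.2, 168 and 94.2 CPM in *Atm*-WT against 81.0, 91.0, 74.6 and 54.3 CPM in *Atm*-KO mice. *Atm*-WT mice 13M and 2M were again the highest, *Atm*-WT mouse 7M and *Atm*-KO mouse 7F were level to the nearest CPM, and the log2 fold change was −0.68 (−0.46 without 13M, adjusted p = 0.116 by edgeR and 0.0813 by DESeq2). *Slc2a3*, the neuronal glucose transporter, stood at 150 and 148 CPM (log2 fold change −0.020, and 0.039 without 13M). *Sort1*, which sorts GLUT4 into its vesicles, had means of 362 ± 3.62 and 325 ± 30.0 CPM without overlap and was called by neither tool. DESeq2 called *Slc2a5* and *Slc2a12*, sugar transporters named after their values were seen, as lower (1.23 against 0.688 CPM and 16.1 against 11.5 CPM).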

How the data were processed

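Total RNA of frozen cerebellum was sequenced by a service provider on an Illumina platform. The authors checked reads with FastQC 0.11.9, used STAR for alignment to GRCm39 and featureCounts for counting per gene, and deposited raw counts without normalization. Settings for strand and read pairs are not given in the sources used here, and 67.3% to 73.3% of counts from 1 to 50 were even, so that a count may be a read or a fragment. Gene identifiers were matched without version to GENCODE vM39 (56017 of 56691).

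The genotype in each label set the group of the library. Genes kept by filterByExpr (22423) were normalized by TMM and fitted without covariates by glmQLFit and glmQLFTest in edgeR 4.0.16 and R 4.3.3, and p-values were adjusted by Benjamini-Hochberg over every gene tested. CPM used TMM-scaled library sizes, and log2 CPM a prior count of 2. With 4 mice per genotype, single genes and log2 ratios were compared by exact permutation, two-sided, over the 70 possible splits. Replicates are single mice by their labels. Alternatives were DESeq2 1.42.0, limma 3.58.1 (voom), RLE factors, library size alone, no filter, at least 10 counts in every library, protein-coding genes alone, a surrogate variable from sva 3.50.0, an adjusted p under 0.1 and each library left out. Fits were tested on simulated data.

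The genes, lists and tests were chosen with earlier results of these data known. Named were the 10 genes, *Atm*, the 3 genes most correlated with *Insr* and with *Irs2*, and in each pathway list the genes called or, with none called, up to 3 with the smallest p among those averaging 1 CPM or more without overlap of genotypes. Promoters came from RefSeq on GRCm38.p6, a build other than that of the counts. The values of 2 genes of the lists are not reported here singly.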

Additional observations from a re-analysis of the deposited data

Results flagged for a closer look

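Of 60 groups of 4 mice examined over the named genes and ratios, 4 held a mouse set apart from the others by Dixon's criterion, and chance alone flags about 5% of such groups. *Irs2* stood at 145 CPM in *Atm*-WT mouse 32M, under the 170 to 173 CPM of the other *Atm*-WT mice. *Sh2b2* stood at 8.15 CPM in *Atm*-WT mouse 13M, against 3.29 to 4.01 CPM in the others. *Foxo4* stood at 23.1 CPM in *Atm*-KO mouse 7F, the female, against 19.3 to 19.6 CPM in the other *Atm*-KO mice. The log2 ratio of *Irs2* to *Irs1* was 0.35 in *Atm*-WT mouse 7M and 0.45 to 0.47 in the other *Atm*-WT mice.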

How the results depend on the processing

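*Irs1*, *Igf1r*, *Irs2*, *Pik3r1*, *Akt1*, *Foxo1* and *Foxo3* were lower in *Atm*-KO under all 17 alternatives, with *Irs2* between −0.43 and −0.32 (adjusted p 0.00322 to 0.293) and *Foxo1* between −0.73 and −0.39 (adjusted p 0.00857 to 0.327). The alternative of an adjusted p under 0.1 kept the main fit, so it could not change a direction. *Igf1r* ran from −0.17 to −0.036, *Irs1* from −0.25 to −0.10, *Pik3r1* from −0.12 to −0.028, *Akt1* from −0.26 to −0.097 and *Foxo3* from −0.21 to −0.057. The median of the 10 genes was −0.17 without *Atm*-WT mouse 32M and −0.058 without 13M, the extremes with a mouse left out. The number of the 10 genes called was 0 in edgeR and became 2 with DESeq2 or without a filter on low counts and 1 at an adjusted p under 0.1. The other pathway genes called numbered 13, 6 and 4 under these settings in place of 0, and the calls over all genes 1552, 591 and 426 in place of 4. Protein-coding genes alone gave 2 calls. With each mouse left out edgeR gave 1 to 27 calls, 27 without *Atm*-WT mouse 13M and 10 without 32M, with 0 of the 10 genes called each time. DESeq2 with each mouse left out, chosen after seeing the data, gave 412 to 2154 calls, with 1 or 2 of the 10 genes (1 without *Atm*-KO mouse 12M) and 3 to 14 other pathway genes.

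With a mouse left out *Insr* ranged from −0.075 to 0.041, *Akt2* from −0.060 to 0.076 and *Slc2a4* from −0.10 to 0.050. *Insr* turned positive with library size alone (0.041), at least 10 counts in every library (0.015), protein-coding genes alone (0.032) and without *Atm*-WT mouse 7M (0.017), 13M (0.041) or *Atm*-KO mouse 7F (0.031). *Akt2* did so with library size alone (0.028), at least 10 counts (0.0030), protein-coding genes alone (0.020) and without *Atm*-WT mouse 7M (0.076) or *Atm*-KO mouse 11M (0.0047), and *Slc2a4* with library size alone (0.019), protein-coding genes alone (0.011) and without *Atm*-WT mouse 13M (0.050), *Atm*-KO mouse 1M (0.037) or 7F (0.024). The number of the 10 genes higher in *Atm*-KO was thus 3, 2 and 3 under library size alone, at least 10 counts and protein-coding genes alone, and 0 to 2 with a mouse left out. The median of all genes was −0.018 and became 0.031 with library size alone.

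With a mouse left out, the difference of the log2 ratio *Irs2/Irs1* was −0.26 to −0.17, of *Insr/Igf1r* 0.035 to 0.12, of *Akt2/Akt1* 0.13 to 0.33 and of *Foxo3/Foxo1* 0.34 to 0.57. The causes of these differences were not tested. No paired analysis was made, because the sample labels do not give the litter of a mouse.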
